A study of Neurospora crassa with 6 samples.

Results

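Transcripts of 9 genes of Neurospora crassa that make or break down trehalose and glycerol were followed by RNAseq in 6 libraries. The 9 were chosen by their locus tags out of the 9730 genes measured. They are the trehalose phosphate synthases NCU09715 and NCU00793, the trehalose phosphatase NCU05041, ccg-9 (NCU09559, trehalose synthase), tre-1 (NCU00943, trehalase), tre-2 (NCU04221, neutral trehalase), gcy-1 (NCU04923, glycerol dehydrogenase 1), the glycerol kinase NCU06005 and the glycerol-3-phosphate dehydrogenase NCU05454. All 9 were above 0 FPKM in every library and passed the filter on low values, a mean of at least 1 FPKM. FPKM is by definition the number of fragments scaled to transcript length and to the mapped fragments of the library, so it is a level per length that can be set beside that of another gene. The deposited columns may also carry a scaling between libraries, which is not given in the sources used here.

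The libraries came from germinating conidiospores of 2 strains. The os2 strain, UCLA 80A, carries a point mutation in os-2 that leaves a truncated, non-functional OS-2 protein, in the SL4 background. The wild type (wt) is OR74A, so os-2 and the strain background cannot be told apart. Conidia of each strain were germinated for 5 hr at 30°C in Vogel's medium with 0.05% glucose. Dual stress (DS) was then 2 hr at 45°C with 2-deoxyglucose (2-DG, a glucose analog that cells phosphorylate but cannot use as fuel), heat shock (HS) was 2 hr at 45°C alone, and the control stayed 1 hr more at 30°C. The control was therefore treated for a shorter time than HS and DS. Each strain and treatment has 1 library, so no value has a replicate error and no ratio of 2 libraries was tested here. A difference was counted from 2-fold, and the share of all genes past the same limit is given beside each count of members. Each library averages a whole culture, so fewer cells that express a gene and less RNA per cell cannot be told apart.

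Trehalose is a disaccharide of glucose that fungal spores store as a reserve and that protects proteins and membranes during heat and drying. A synthase joins UDP-glucose to glucose phosphate, a phosphatase removes the phosphate, and trehalases split the sugar back to glucose. Glycerol is the osmolyte that fungi accumulate under high osmolarity, and OS-2 is the MAP kinase of that response, the counterpart of Hog1 of Saccharomyces cerevisiae. Glycerol dehydrogenase forms glycerol from a triose, while glycerol kinase and glycerol-3-phosphate dehydrogenase return glycerol to glycolysis.

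The columns of the table had similar medians, between 13.5 and 15.4 FPKM over genes above 0, but their sums lay between 426267 and 899576 FPKM. Median-ratio scaling takes the factor of a column from the median ratio of the genes to their geometric mean over the libraries. These factors lay between 0.991 (os2 30°C) and 1.01 (wt DS), so that scaling left the log2 ratios almost unchanged. Which scale is right was not tested. The members had between about 92 and 10285 fragments per library, inferred from the smallest step of the values. Counting error alone then gives a log2 ratio of 2 libraries a standard error between 0.026 and 0.184, without any biological spread. Transcripts of os-2 itself were at 37.5 FPKM in DS, 37.0 in HS and 34.3 at 30°C in os2, and at 67.1 FPKM in DS, 65.1 in HS and 113 at 30°C in wt. A point mutant can still be transcribed, so this level is no check of OS-2 function.

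gcy-1 (chromosome IV, 747091 to 748922 of assembly NC12) had, as deposited, the lowest os2/wt ratio of the 9 genes in both stresses, and its log2 value was the farthest from 0. In os2 it had 54.7 FPKM in DS, 11.4 in HS and 53.1 at 30°C. In wt it had 215 FPKM in DS, 211 in HS and 60.3 at 30°C. The strains were close at 30°C, and wt was high in both stresses, while os2 was low in HS and near its control level in DS. In os2 the level was 4.66-fold lower in HS than at 30°C and 4.80-fold higher in DS than in HS, and its DS/30 log2 ratio was 0.04. In wt it was 3.57-fold higher in DS and 3.50-fold higher in HS than at 30°C. Between strains it was 3.94-fold lower in os2 in DS and 18.5-fold lower in os2 in HS. Among all genes tested, its os2/wt HS ratio was the 98th lowest of 8081 and its os2/wt DS ratio the 285th lowest of 8072. The treatment ratios thus ran in opposite directions in HS, and the os2 minus wt difference of the log2 ratios was -4.03 for HS/30 and -1.79 for DS/30. With columns of one common sum these differences were -3.66 and -0.88, and the os2 log2 ratios were 0.63 for DS/30 and -1.45 for HS/30. In os2/wt DS tre-2 (1.61), NCU00793 (1.21) and NCU09715 (1.14) were then farther from 0 than gcy-1 (-1.08). In percentiles of the genes above 0 FPKM in each library, gcy-1 stood at 81.8 in DS, 45.7 in HS and 80.1 at 30°C in os2, and at 94.0 in DS, 96.3 in HS and 81.7 at 30°C in wt.

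**Figure D1:**
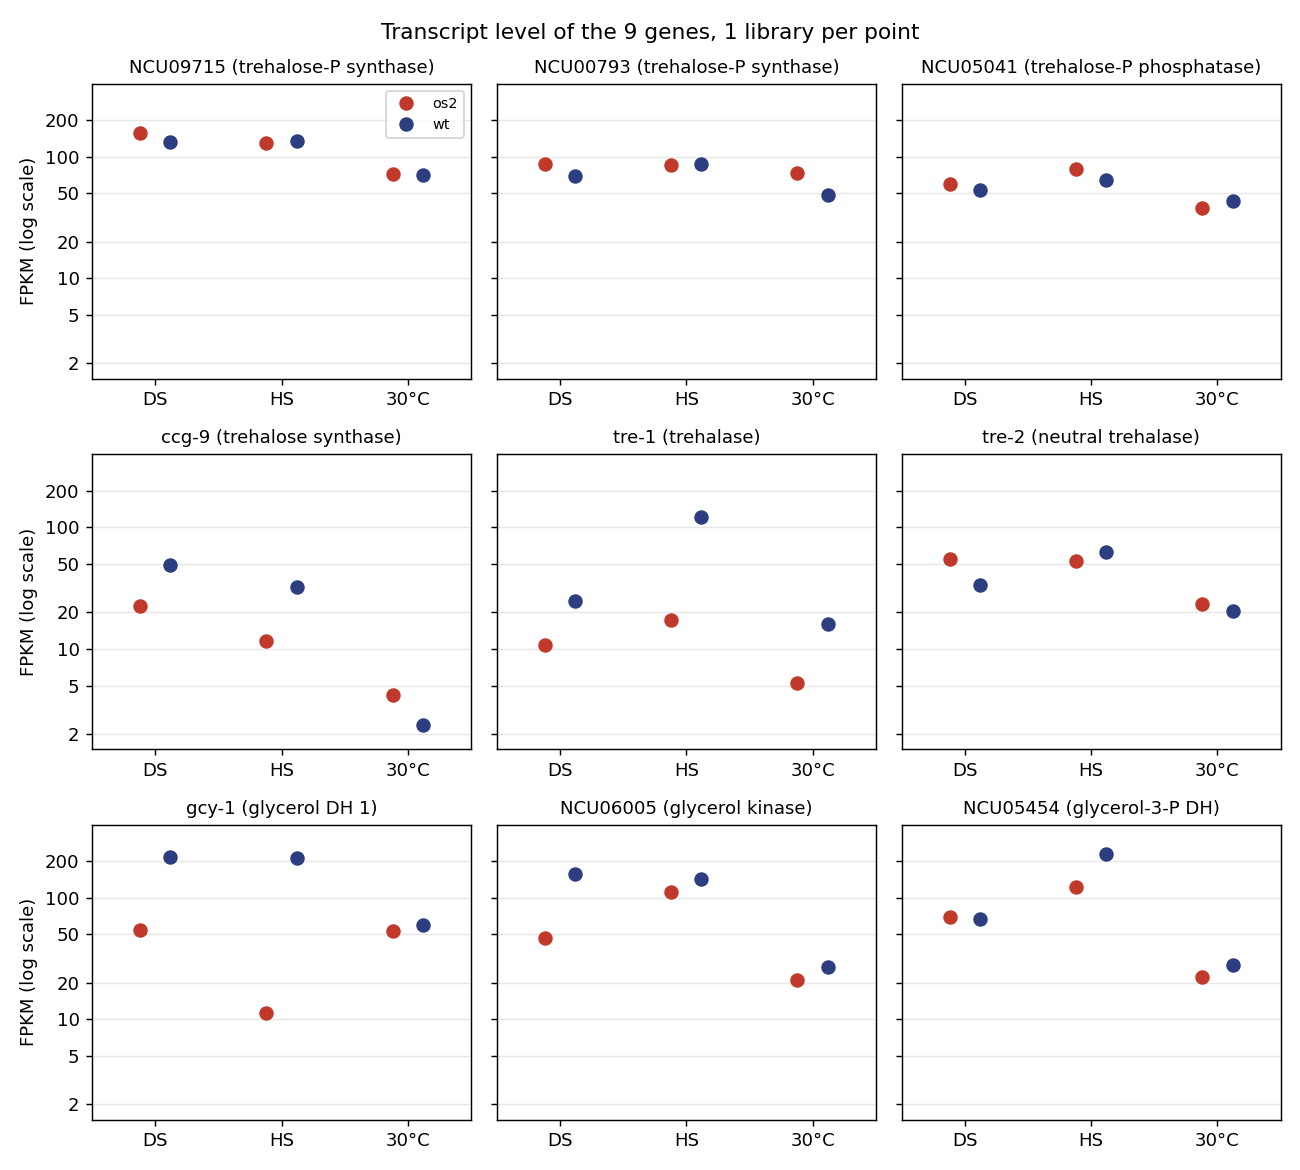
Transcript level in FPKM (log scale) of each of the 9 genes in DS, HS and at 30°C, with 1 point for the single library of os2 (red) and of wt (blue) and no error bar. As deposited, the 3 genes of the upper row lie within 2-fold between strains in every treatment, whereas gcy-1 had 11.4 FPKM in os2 HS and 211 FPKM in wt HS.

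Glycerol kinase NCU06005 (chromosome VI, 3113510 to 3116822), which phosphorylates glycerol on the way to glycolysis, differed between the strains in DS. In os2 it had 46.6 FPKM in DS, 112 in HS and 21.1 at 30°C. In wt it had 158 FPKM in DS, 142 in HS and 26.8 at 30°C. Both strains were high in HS, by 5.32-fold over 30°C in os2 and 5.30-fold in wt. In DS it was 2.21-fold over 30°C in os2 and 5.91-fold in wt, so that os2 was 3.40-fold lower than wt. After scaling every column to one common sum, its os2/wt DS log2 ratio of -1.77 became -0.87, within 2-fold. In os2 its level was also 2.41-fold lower in DS than in HS, the 297th lowest ratio of 8078.

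Glycerol-3-phosphate dehydrogenase NCU05454 (chromosome II, 1650714 to 1654419), which oxidises the product of glycerol kinase and is placed by the study among the enzymes that degrade glycerol, had another order. In os2 it had 69.2 FPKM in DS, 123 in HS and 22.3 at 30°C. In wt it had 66.4 FPKM in DS, 228 in HS and 28.1 at 30°C. The level was highest in HS in both strains, and the os2/wt DS log2 ratio was 0.06 as deposited. In HS it was 5.50-fold over 30°C in os2 and 8.12-fold in wt, and in DS 3.10-fold in os2 and 2.36-fold in wt. In wt it was 3.44-fold lower in DS than in HS. The log2 ratio of DS/HS in os2 was -0.83, within 2-fold. After scaling every column to one common sum, the wt DS/30 log2 ratio of 1.24 became 0.92, within 2-fold, os2 DS/HS became -1.01, past 2-fold, and os2/wt DS became 0.95.

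Ratios of 2 genes within a library do not depend on how the libraries were scaled. gcy-1 over glycerol kinase was 1.17 in DS, 0.101 in HS and 2.52 at 30°C in os2, and 1.36 in DS, 1.48 in HS and 2.25 at 30°C in wt. Only the os2 HS library held less gcy-1 than glycerol kinase, and in DS, where both genes were lower in os2, the ratio was close between strains. Glycerol kinase over glycerol-3-phosphate dehydrogenase was 0.673 in DS, 0.914 in HS and 0.945 at 30°C in os2. In wt it was 2.39 in DS, 0.622 in HS and 0.954 at 30°C. Only the wt DS library held more of the kinase than of the dehydrogenase.

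The enzymes of trehalose synthesis were 3 genes whose log2 ratios lay between -0.42 and 1.13 in all 9 comparisons as deposited, and ccg-9, whose log2 ratios reached 4.36. NCU09715 (chromosome VII, 1376984 to 1379572), a trehalose phosphate synthase, had 158 FPKM in DS, 129.6 in HS and 72.1 at 30°C in os2. In wt it had 133 FPKM in DS, 135 in HS and 71.2 at 30°C. Both strains were higher in the stresses than in the control, and as deposited the only ratio past 2-fold was DS/30 of os2, with a log2 ratio of 1.13. The others were 0.85 in os2 HS/30, 0.90 in wt DS/30 and 0.92 in wt HS/30, and the 3 os2/wt log2 ratios lay between -0.06 and 0.25. Scaled to one common sum, the log2 ratio also passed 2-fold in os2 HS/30 (1.62), wt HS/30 (1.33) and os2/wt DS (1.14).

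NCU00793 (chromosome I, 7151166 to 7155148), the other trehalose phosphate synthase, had 87.0 FPKM in DS, 85.1 in HS and 73.0 at 30°C in os2. In wt it had 69.9 FPKM in DS, 86.7 in HS and 48.3 at 30°C. As deposited, none of its 9 ratios passed 2-fold, and its largest log2 ratio was 0.84 in wt HS/30. With columns of one common sum it passed 2-fold with 1.21 for os2/wt DS, -1.04 for wt DS/HS and 1.25 for wt HS/30. The trehalose phosphatase NCU05041 (chromosome VI, 3957084 to 3961803) had 59.9 FPKM in DS, 79.9 in HS and 37.8 at 30°C in os2. In wt it had 53.5 FPKM in DS, 64.3 in HS and 43.5 at 30°C. Both strains were highest in HS, and as deposited only os2 HS/30 passed 2-fold, with a log2 ratio of 1.08. With columns of one common sum os2 DS/30 (1.26) and os2/wt DS (1.06) passed it too.

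ccg-9 (chromosome VII, 1002874 to 1007545), a trehalose synthase named as a clock-controlled gene, had the largest HS/30 and DS/30 ratios of the 9 genes in wt. In os2 it had 22.6 FPKM in DS, 11.7 in HS and 4.18 at 30°C. In wt it had 48.8 FPKM in DS, 32.5 in HS and 2.37 at 30°C. The level was highest in DS and lowest at 30°C in both strains, although the wt DS/HS log2 ratio of 0.59 became -0.14 after scaling every column to one common sum, with os2 above wt at 30°C and below wt in both stresses. In DS it was 5.40-fold over 30°C in os2 and 20.6-fold in wt, and in HS 2.79-fold in os2 and 13.7-fold in wt. The wt DS/30 ratio was the 121st highest of 8005. Between strains it was 2.17-fold lower in os2 in DS and 2.79-fold lower in HS, and at 30°C the os2/wt log2 ratio was 0.82, within 2-fold. The wt control value rests on the fewest fragments of any member, about 92, a counting error of 10.4%. After scaling every column to one common sum, its os2/wt DS log2 ratio of -1.11 became -0.22.

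Summed over the 4 genes of trehalose synthesis, the level was 328 FPKM in DS, 306 in HS and 187 at 30°C in os2. In wt the sum was 305 FPKM in DS, 318 in HS and 165 at 30°C. As deposited, the sums were within 2-fold between strains in each treatment, and the share held by ccg-9 was lower in os2 in both stresses. That share was 6.88% in DS, 3.81% in HS and 2.23% at 30°C in os2, and 16.0% in DS, 10.2% in HS and 1.43% at 30°C in wt.

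Of the trehalases, which split trehalose to glucose, tre-1 was past 2-fold between strains in every treatment as deposited and tre-2 in none, though with columns of one common sum tre-2 and not tre-1 was past it in DS. tre-1 (chromosome I, 6632519 to 6635173) had 10.7 FPKM in DS, 17.4 in HS and 5.28 at 30°C in os2. In wt it had 24.6 FPKM in DS, 121 in HS and 16.1 at 30°C. It was lower in os2 in all 3 treatments, by 2.30-fold in DS, 6.94-fold in HS and 3.04-fold at 30°C. At 30°C the os2/wt ratio was the 76th lowest of 7988. In HS it was 3.30-fold over 30°C in os2 and 7.52-fold in wt. In wt it was 4.92-fold lower in DS than in HS, and the DS/30 log2 ratio was 0.61. In os2 the log2 ratio was 1.02 in DS/30 and -0.70 in DS/HS. With a pseudocount of 1 FPKM the os2 DS/30 value became 0.90, and after scaling to one common sum the os2/wt DS log2 ratio of -1.20 became -0.31, each then within 2-fold.

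The neutral trehalase tre-2 (chromosome V, 5253489 to 5257058) had 55.0 FPKM in DS, 52.7 in HS and 23.3 at 30°C in os2. In wt it had 33.4 FPKM in DS, 63.3 in HS and 20.3 at 30°C. As deposited, no os2/wt ratio of tre-2 passed 2-fold, with log2 ratios of 0.72 in DS, -0.26 in HS and 0.20 at 30°C. With columns of one common sum the DS value was 1.61. Against 30°C, os2 had log2 ratios of 1.24 in DS and 1.18 in HS, and wt had 0.72 in DS and 1.64 in HS.

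Within a library, tre-1 over tre-2 was 0.195 in DS, 0.331 in HS and 0.227 at 30°C in os2. In wt it was 0.735 in DS, 1.91 in HS and 0.791 at 30°C. Only wt HS held more tre-1 than tre-2, and every os2 ratio lay below every wt ratio. ccg-9 over NCU09715 was 0.142 in DS, 0.0901 in HS and 0.0579 at 30°C in os2, and 0.367 in DS, 0.241 in HS and 0.0333 at 30°C in wt.

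**Figure D2:**
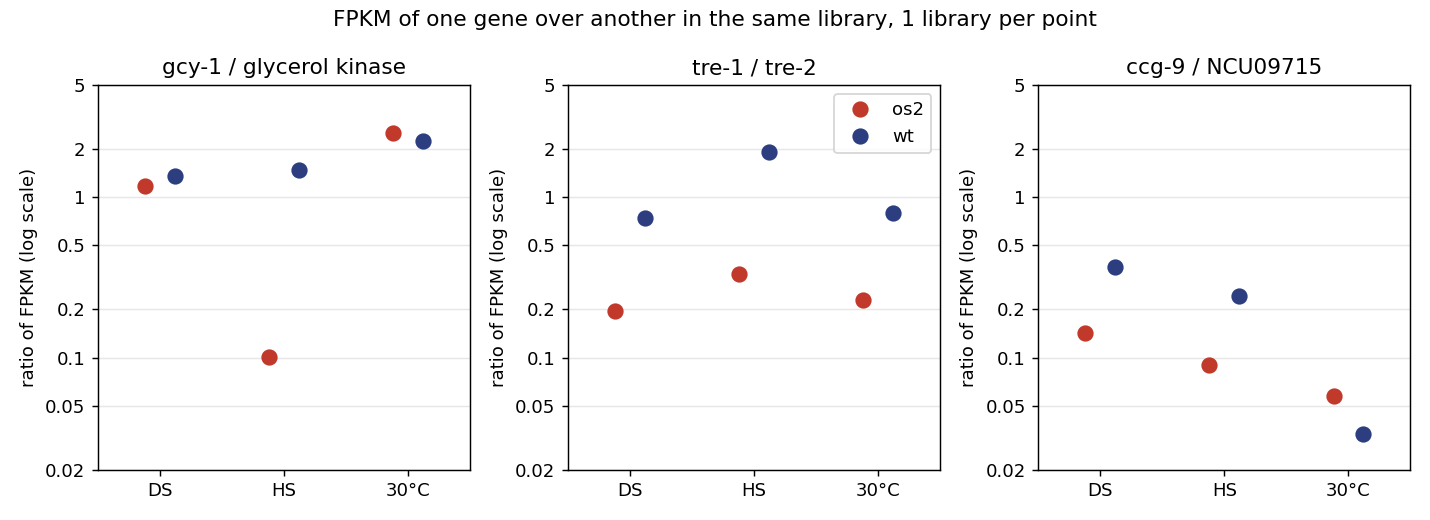
Ratio of the FPKM of 2 genes in the same library (log scale) in DS, HS and at 30°C, for gcy-1 over glycerol kinase, tre-1 over tre-2 and ccg-9 over NCU09715, with 1 point per library, os2 in red and wt in blue. The gcy-1 ratio in os2 HS, 0.101, stands below the other 5 libraries, which lie between 1.17 and 2.52.

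Counted together, 6 of the 9 genes were at least 2-fold higher in os2 HS/30, where 19.3% of all genes were, and 1 (gcy-1) was lower, against 15.1% of all genes. In wt HS/30, 6 were higher against 28.3% of all genes, and 0 were lower against 27.7%. In os2 DS/30, 6 were higher against 23.3% of all genes and 0 lower against 19.4%. In wt DS/30, 4 were higher against 19.4% of all genes and 0 lower against 15.1%. The median log2 ratio of the 9 genes was 1.18 in os2 HS/30, 1.81 in wt HS/30, 1.13 in os2 DS/30 and 0.90 in wt DS/30, while the median of all genes lay between -0.02 and 0.02. ccg-9, glycerol kinase and glycerol-3-phosphate dehydrogenase were past 2-fold in all 4 of these comparisons.

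Between the stresses, 1 member (gcy-1) was higher in os2 DS/HS, where 10.2% of all genes were, and 1 (glycerol kinase) was lower, where 7.37% were. In wt DS/HS, 0 were higher against 21.1% of all genes, and 2 (tre-1 and glycerol-3-phosphate dehydrogenase) were lower against 20.3%. The lower counts of wt DS/HS are near the share of all genes.

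**Figure D3:**
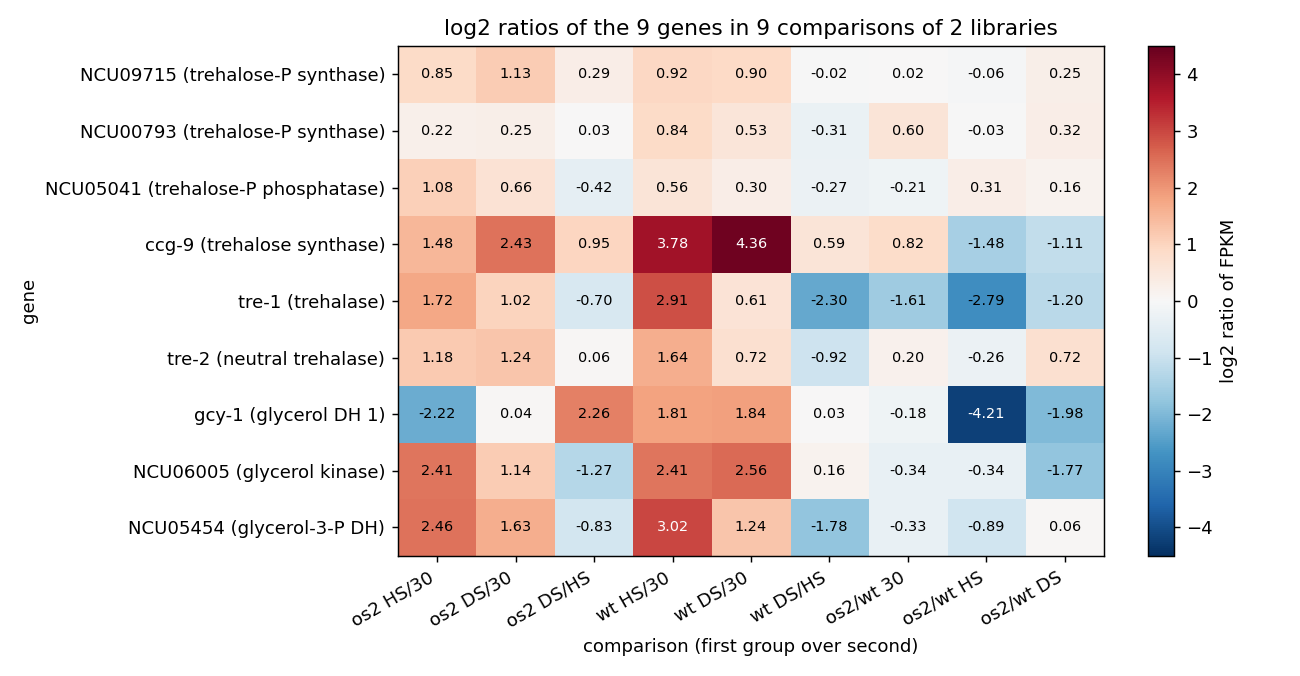
log2 ratios of FPKM (color, with the value printed) of the 9 genes in rows and the 9 comparisons in columns, the first group named over the second, each from 2 libraries. gcy-1 is blue in os2 HS/30 (-2.22) and red in wt HS/30 (1.81), and ccg-9 is deepest red in wt DS/30 (4.36).

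Between strains, 0 of the 9 genes were higher in os2/wt DS against 11.4% of all genes, and 4 (gcy-1, glycerol kinase, tre-1 and ccg-9) were lower against 16.5%. In os2/wt HS, 0 were higher against 16.3% of all genes, and 3 (gcy-1, tre-1 and ccg-9) were lower against 17.9%. At 30°C, 0 were higher against 2.99% of all genes, and 1 (tre-1) was lower against 3.0%. The count in DS rests on the scale between libraries. After scaling every column to one common sum, which moves the median os2/wt DS log2 ratio of all genes by 0.89, 1 gene (gcy-1, with -1.08) was lower and 4 were higher, namely NCU09715, NCU00793, NCU05041 and tre-2. Of the 8072 genes tested, 3714 were then higher and 331 lower, so the higher count of members is near the share of all genes. In os2/wt HS the same scaling left gcy-1 (-3.86), tre-1 (-2.45) and ccg-9 (-1.13) lower, with 966 of 8081 genes lower.

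**Figure D4:**
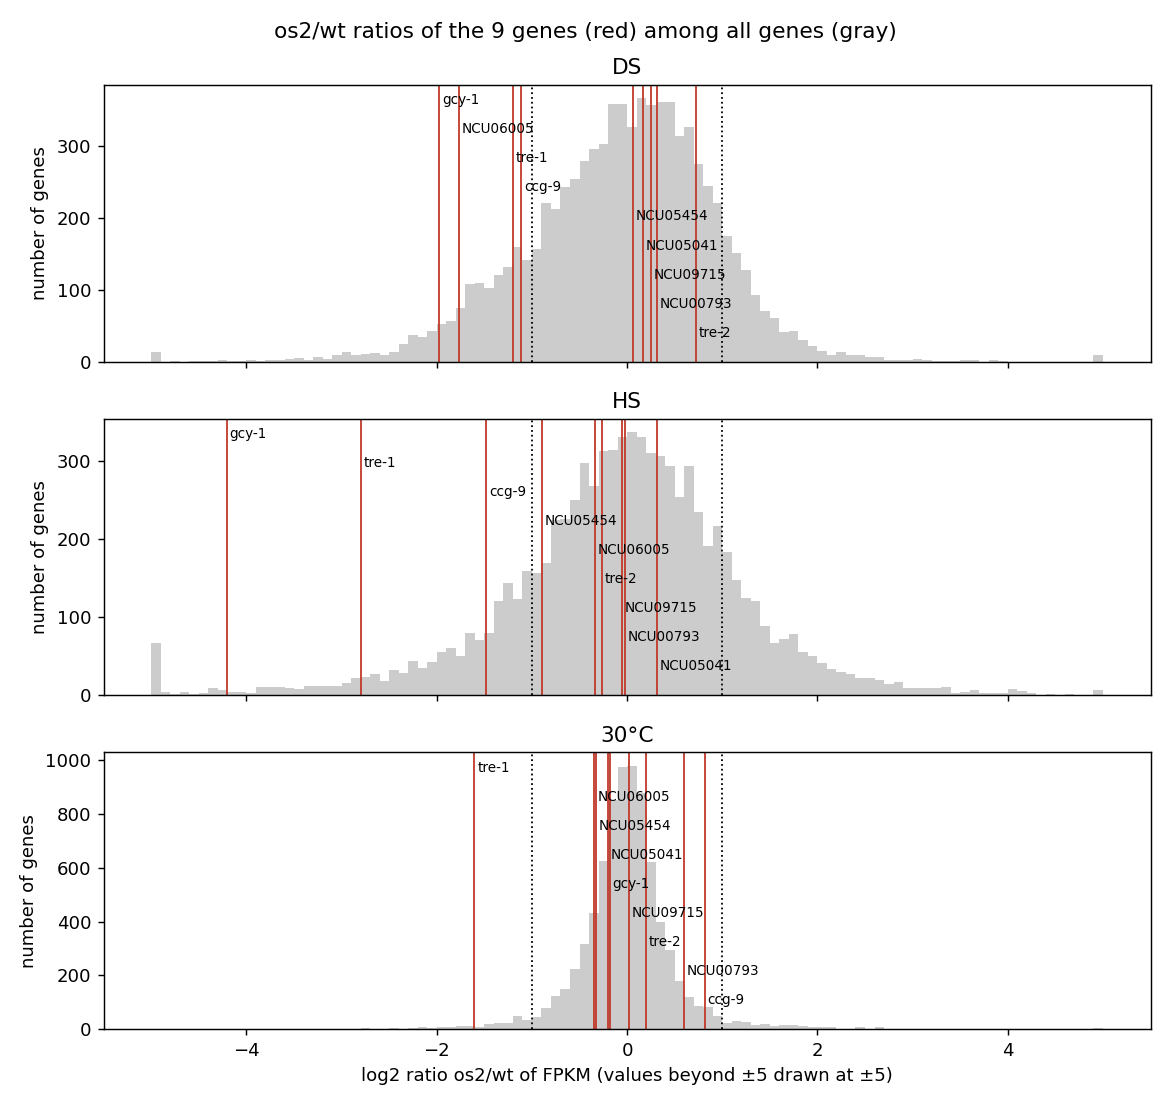
Histograms of the log2 os2/wt ratio of FPKM over all genes tested (gray, number of genes per bin of 0.1) in DS, HS and at 30°C, with a red line for each of the 9 genes and dotted lines at 2-fold. gcy-1 stands at -1.98 in DS and -4.21 in HS, in the lower tail, and at -0.18 at 30°C, near the center.

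A list of 8 further genes of glycerol, lipid and glucose use, several of which the study chose on these libraries, gave 5 genes higher in os2 HS/30 (19.3% of all genes), 6 in wt HS/30 (28.3%), 5 in os2 DS/30 (23.3%) and 4 in wt DS/30 (19.4%). In these comparisons 1 was lower, in wt HS/30 (27.7% of all genes). In os2/wt DS the list had 1 higher (11.4% of all genes) and 3 lower (16.5%), and in os2/wt HS 2 higher (16.3%) and 5 lower (17.9%). At 30°C 0 were higher (2.99%) and 0 lower (3.0%). Glycerol dehydrogenase 3 (gcy-3, NCU04510) had 119 FPKM in DS, 169 in HS and 41.0 at 30°C in os2, and 178 FPKM in DS, 691 in HS and 57.0 at 30°C in wt. Unlike gcy-1, it was highest in HS in both strains, and its HS/30 ratio differed between strains by -1.55 on the log2 scale, os2 minus wt. Glucokinase NCU02702, which phosphorylates glucose, had 36.2 FPKM in DS, 54.9 in HS and 19.7 at 30°C in os2, and 90.0 FPKM in DS, 117 in HS and 18.2 at 30°C in wt.

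Likeness of pattern was measured as the root mean square difference of log2 FPKM over the 6 libraries, after each of 7971 genes was centered on its own mean. Nearest to gcy-1 was NCU06170 at 0.33, with 130.1 FPKM in DS, 23.5 in HS and 123 at 30°C in os2, and 304 FPKM in DS, 322 in HS and 85.0 at 30°C in wt. Like gcy-1, it was lowest in os2 HS. The member nearest to gcy-1 was tre-1, at 1.37. Glucokinase was the second nearest gene to glycerol kinase, at 0.32, after NCU07833 at 0.27. NCU07833 had low values, between 0.278 FPKM (os2 30°C) and 2.09 FPKM (os2 HS). Nearest to ccg-9 were NCU09365 at 0.27, mig-8 at 0.29 and stk-22 at 0.30. Among pairs of members the closest were NCU09715 and NCU05041 at 0.27, NCU00793 and NCU05041 at 0.28, and NCU09715 and tre-2 at 0.30. The second gene of each pair ranked 222nd, 333rd and 349th in likeness to the first, so many other genes were closer.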

How the data were processed

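Polyadenylated RNA of 6 cultures, 1 per strain and treatment, was sequenced with paired ends. Per the labels and the study's methods, the authors used CASAVA 1.8.2, FastQC, TopHat (74a_12 supercontigs and the Broad transcriptome) and Cufflinks, and deposited 1 table of FPKM. Tool versions other than that of CASAVA, and any scaling between libraries, are not given in the sources used here. The authors' Cuffdiff comparisons were not used.

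From the deposited FPKM, 9 pairs of libraries were compared by log2 ratios with no pseudocount, leaving out genes at 0 in either library, with calls at 2-fold. Shares of all genes are over the 8098 genes with a mean of at least 1 FPKM, leaving out 1 row that names no gene. The text names all 9 members, the 8 further genes as a count with examples, os-2, and the genes nearest in pattern. Members and lists were chosen with earlier results of these data known. Of the 9730 identifiers, 9729 matched the RefSeq table of assembly NC12, which gave the coordinates. Promoter and protein sequences were not analysed here. The number of fragments was inferred from the smallest step of FPKM times gene span, introns included, and is approximate. Scripts (Python 3.11.15, numpy 2.4.6, pandas 2.3.3, matplotlib 3.10.9) were tested on simulated data. With 1 library per group no test between groups was made. Alternatives were 3 scalings of the columns, pseudocounts of 0.1 and 1 FPKM, no filter and a mean of at least 10 FPKM.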

Additional observations from a re-analysis of the deposited data

Results flagged for a closer look

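The HS/30 ratio of gcy-1 ran in opposite directions in the strains. It was -2.22 on the log2 scale in os2 and 1.81 in wt, an os2 minus wt difference of -4.03, which no scaling of the columns and neither pseudocount turned in sign for either strain. After scaling every column to one common sum, the values were -1.45 in os2 and 2.21 in wt, a difference of -3.66. With 1 library per group the difference was not tested here. The study describes gcy-1 transcripts as raised by DS in wt alone. For this gene it lists a lowered os2 HS/30 ratio, a raised os2 DS/HS ratio and a lowered os2/wt DS ratio, but no wt HS/30 ratio.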

How the results depend on the processing

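Of the 81 log2 ratios of the 9 genes, 0 changed call or sign with median-ratio scaling or a pseudocount of 0.1, and 1 fell within 2-fold with a pseudocount of 1 (tre-1 in os2 DS/30). Median-ratio scaling is no check of the calls, because its factors, between 0.991 and 1.01, could hardly move a ratio. Upper-quartile scaling brought 1 past 2-fold (NCU09715 in wt HS/30) and changed 5 signs, none of a called value. After scaling every column to one common sum, 4 called ratios fell within 2-fold, 11 came past it and 10 changed sign, again none of a called value. The members counted then were 2 lower in os2 DS/HS (1 as deposited), 4 lower in wt DS/HS (2), and 4 higher and 1 lower in os2/wt DS (0 and 4). In the same order, the genes past the limit were 919 of 8078, 3531 of 8079, and 3714 and 331 of 8072. The 4 lower in wt DS/HS and the 4 higher in os2/wt DS are near these shares. The cause of the moves was not tested. Over all genes this scaling gave 3330 higher and 511 lower in os2 HS/30 (1553 and 1215 as deposited), 3020 and 760 in os2 DS/30 (1869 and 1562), 943 and 3531 in wt DS/HS (1707 and 1642), and 3714 and 331 in os2/wt DS (917 and 1329). It gave 919 lower in os2 DS/HS (595), 2001 lower in wt DS/30 (1208) and 2100 higher in os2/wt HS (1321), and for the 8 further genes 3 lower in os2/wt HS (5) and 2 higher and 0 lower in os2/wt DS (1 and 3). In os2/wt 30 a pseudocount of 1 gave 112 higher and 127 lower over all genes (239 and 240), and no filter gave 363 higher. A mean of at least 10 FPKM removed genes from the counts and gave 804 higher in os2 HS/30 (1553), 1112 higher in os2 DS/30 (1869), 541 higher and 346 lower in os2 DS/HS (824 and 595), 1279 higher in wt HS/30 (2267), 931 higher and 789 lower in wt DS/30 (1556 and 1208), 867 lower in wt DS/HS (1642), 46 higher and 127 lower in os2/wt 30 (239 and 240), 891 lower in os2/wt HS (1447) and 494 higher in os2/wt DS (917). A result was taken as moved past 1.5-fold, or where fewer than 2 of the 3 nearest genes were kept. A pseudocount of 1 moved 7 results other than the counts of members, lists of nearest genes among them. Of the 3 genes nearest to glycerol kinase in pattern, 1 remained with a pseudocount of 1. No paired analysis was possible because each strain and treatment has 1 library, and leaving out a library would leave its group empty. A fit of strain plus treatment over the 6 libraries was not made.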
